A study of Mus musculus with 6 samples.

Results

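The enzymes that add, read and remove histone acetyl groups were followed in immortalized mouse embryonic fibroblasts, connective tissue cells grown from embryos, after loss of one of the writers, GCN5. The set was a fixed list of 58 genes: 25 subunits of the SAGA and ATAC complexes, 13 other acetyltransferases, 2 bromodomain readers, 11 histone deacetylases (HDACs) and 7 sirtuins. Every array probe set annotated to 1 of these symbols alone was taken, which gave 118 of the 45037 non-control probe sets, for 57 of the 58 genes. Taf9 had only probe sets shared with other genes and has no value here. The question was whether any member changed when GCN5 was lost, as a gene standing in for it would.

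Total RNA was measured on 6 Affymetrix arrays, 3 from PCAF-/-;GCN5-/- cells and 3 from PCAF-/-;GCN5+/- cells. All cells therefore lacked PCAF (gene Kat2b), and the genotypes differed at GCN5 (gene Kat2a), which the design describes as a conditional allele removed by a retrovirus carrying Cre recombinase, with vector virus alone as the control. No label names the virus of an array, and the design text gives the same genotype for both infections, so the groups follow the sample labels. Each genotype was sampled from 2 independently immortalized lines, with RNA of line A arrayed in duplicate (A1, A2) and that of line B once. So 2 lines stand behind every comparison. With line in the fit, p-values for genotype reflect technical spread in line A and how far the genotype change differs between lines. Cells had been selected in puromycin, and the deposited values are log2 signals on which array medians lay between 7.4 and 7.45. All 19 probe sets of the fibroblast genes Col1a1, Col1a2, Col3a1, Fn1, Vim, Thy1, Pdgfra, Pdgfrb and S100a4 were above the level filter described next. Of the markers of other cell types, 6 of 9 leukocyte probe sets (Cd14, Cd3e, Cd68 and Csf1r), 1 of 5 endothelial (Kdr), 2 of 10 epithelial (Epcam and Krt8) and 4 of 11 neural ones (Tubb3, Gfap and Sox10) were also above it. Ptprc, Adgre1, Pecam1, Cdh5, Tek, Cdh1, Krt14, Krt18 and Map2 were below it at every probe set. None of the tested markers of other cell types was called for genotype by limma, against 8.51% of all tested probe sets. An unadjusted limma p under 0.05 was seen at 2 leukocyte probe sets, against 24.4% of all tested probe sets. Between the lines, 10 of 19 fibroblast, 4 of 6 leukocyte and 1 of 4 neural probe sets were called, against 23.1% of all tested probe sets. The tested endothelial and epithelial ones were not called between the lines.

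Acetyl groups on histone tails loosen chromatin and are bound by bromodomain proteins. GCN5 and PCAF are close relatives that serve as alternative catalytic subunits of SAGA and ATAC, large coactivator complexes in which Tada2b or Tada2a and Tada3 hold the enzyme, Trrap contacts activators and Usp22 with Atxn7, Atxn7l3 and Eny2 removes ubiquitin from histones. p300 and CBP (Ep300, Crebbp), the MYST enzymes (Kat5 to Kat8) and Hat1 acetylate histones outside these complexes. HDACs and sirtuins remove the acetyl groups.

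Of the 118 probe sets, 101 had a mean log2 signal at or above 6.80, the 40th percentile of the array, and were tested. They covered 55 genes, since Kat2b and Hdac9 had no probe set above the filter. The change is GCN5-/- minus GCN5+/-, fitted with limma over 6 arrays with cell line as a covariate, and a call is a Benjamini-Hochberg adjusted p under 0.05 over all 27022 tested probe sets. Errors of changes are standard errors (SE), and errors of group means are standard deviations (SD). Signals of different probe sets cannot be ranked against each other, because each has its own affinity. In bulk RNA of this kind, fewer cells expressing a gene and less RNA per cell cannot be told apart.

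The Kat2a transcript was lower in GCN5-/- arrays at 2 of its 3 probe sets. At 1422972_s_at the log2 signal was 7.97, 7.85 and 7.75 in GCN5-/- arrays A1, A2 and B, against 9.31, 10.07 and 11.51 in the GCN5+/- arrays. The GCN5-/- values lay close together and below every GCN5+/- value, while the GCN5+/- values were spread over more than 2 log2 units, line B being the highest. The change was -2.44 ± 0.37 (SE; limma adjusted p = 0.00864), a ratio of 0.184. At 1422971_at the signal was 8.23, 8.01 and 8.16 in GCN5-/- arrays and 8.68, 8.68 and 9.27 in GCN5+/- arrays, a change of -0.75 ± 0.13 (limma adjusted p = 0.0157), again without overlap. This call was lost without GCN5-/- A2 (adjusted p = 0.0747), without GCN5+/- A1 (adjusted p = 0.0537) and with line as a random block (adjusted p = 0.0574).

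The third Kat2a probe set, 1426783_at, did not follow the other two. Its signal was 11.60, 11.61 and 10.99 in GCN5-/- arrays and 11.04, 11.23 and 11.40 in GCN5+/- arrays. Both line A pairs were higher in GCN5-/-, by 0.56 and 0.38, and the line B pair was lower, at -0.41. The change over all arrays was 0.18 ± 0.16 and was not called (limma adjusted p = 0.575), and the genotype by line interaction was -0.88 ± 0.16 (limma adjusted p = 0.151). In line A alone the probe set was called higher, at 0.47 (limma adjusted p = 0.0238). The position of each probe set against the floxed region was not analysed here, and one lying outside that region does not check the deletion.

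Kat2b, whose product PCAF all these cells lack, was below the level filter at each of its 3 probe sets. The brightest, 1434037_s_at, read 6.79, 7.30 and 6.23 in GCN5-/- arrays and 6.74, 6.82 and 6.21 in GCN5+/- arrays, so the genotypes overlapped and the line B arrays were the lowest of each. Without the level filter its change was 0.19 ± 0.14 (limma adjusted p = 0.576), and those of 1457809_at and 1450821_at were 0.09 ± 0.11 and -0.00 ± 0.11. None of the 3 entered the counts of tested probe sets.

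**Figure D1:**
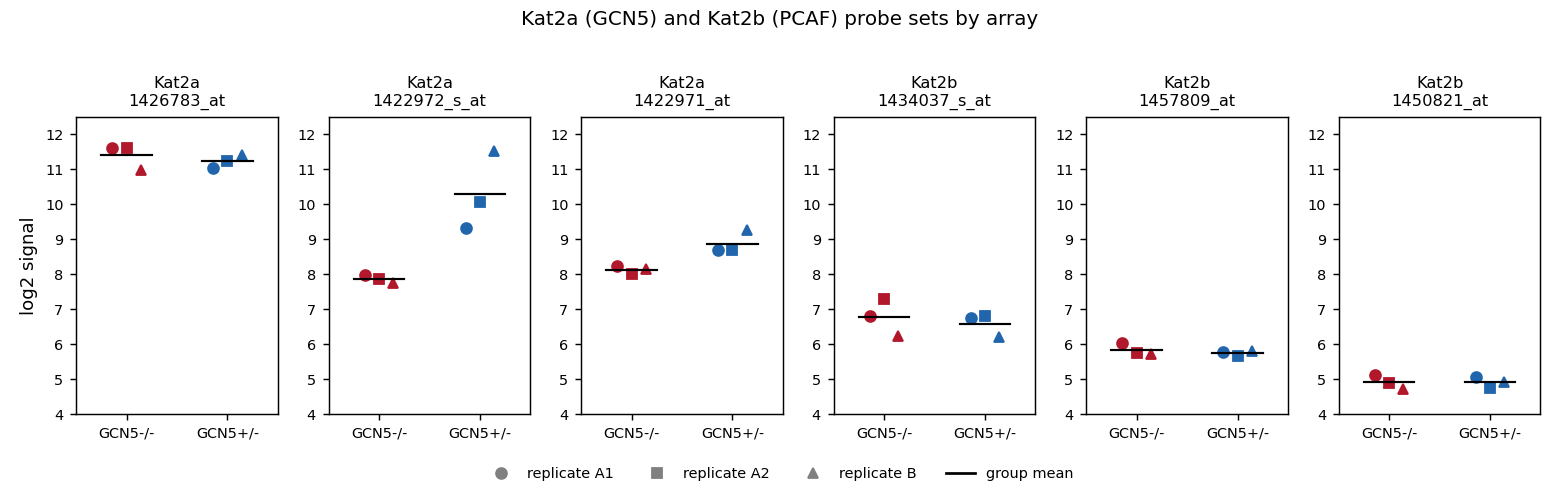
Log2 signal (vertical axis) of the 3 Kat2a and 3 Kat2b probe sets on each array, GCN5-/- in red and GCN5+/- in blue; circles are replicate A1, squares A2, triangles B, and the horizontal line is the group mean of 3 arrays. Kat2a 1422972_s_at and 1422971_at separate the genotypes, Kat2a 1426783_at does not, and Kat2b stays at or below 7.30.

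Outside Kat2a, few acetylation genes were called. Among all 101 tested probe sets 5 were called, 1 higher and 4 lower, which is 4.95%, against 8.51% of all tested probe sets (4.2% higher and 4.31% lower). Without the 2 Kat2a calls, 3 of 98 were left: Taf5l higher, and Ncoa3 and Hdac2 lower, 1 probe set each. Unadjusted p-values under 0.05 were seen at 25 of 101, against 24.4% of all tested probe sets. Of the 101, 15 were higher in all 3 pairs (14.9%, against 23.4% of all tested probe sets) and 31 lower in all 3 (30.7%, against 25.3%). All GCN5-/- arrays lay above all GCN5+/- arrays at 9 (against 8.2%) and below them at 16 (against 8.79%). The median log2 change of the members was -0.05 and the median size of change 0.11, against -0.01 and 0.12 over all tested probe sets. The fibroblast genes moved in the same comparison: 9 of their 19 probe sets were called lower and 0 higher, with a median of -0.31, and whether this bears on the members was not tested.

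None of the 98 tested probe sets outside Kat2a changed by 0.5 log2 (1.41-fold) or more, against 5.57% of all tested probe sets that did. Their changes ran between -0.44 and 0.40. The upper end of the 95% confidence interval was below 1 log2 (2-fold) at all 98 and below 0.5 at 94, the highest being 0.72 for an Eny2 probe set. The median width of these intervals to either side was 0.22 log2. Such intervals are for single probe sets and are not adjusted for their number. The fit has 3 residual degrees of freedom over 2 lines, in part from the line A duplicates. The intervals therefore do not bound how the change varies over lines.

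**Figure D2:**
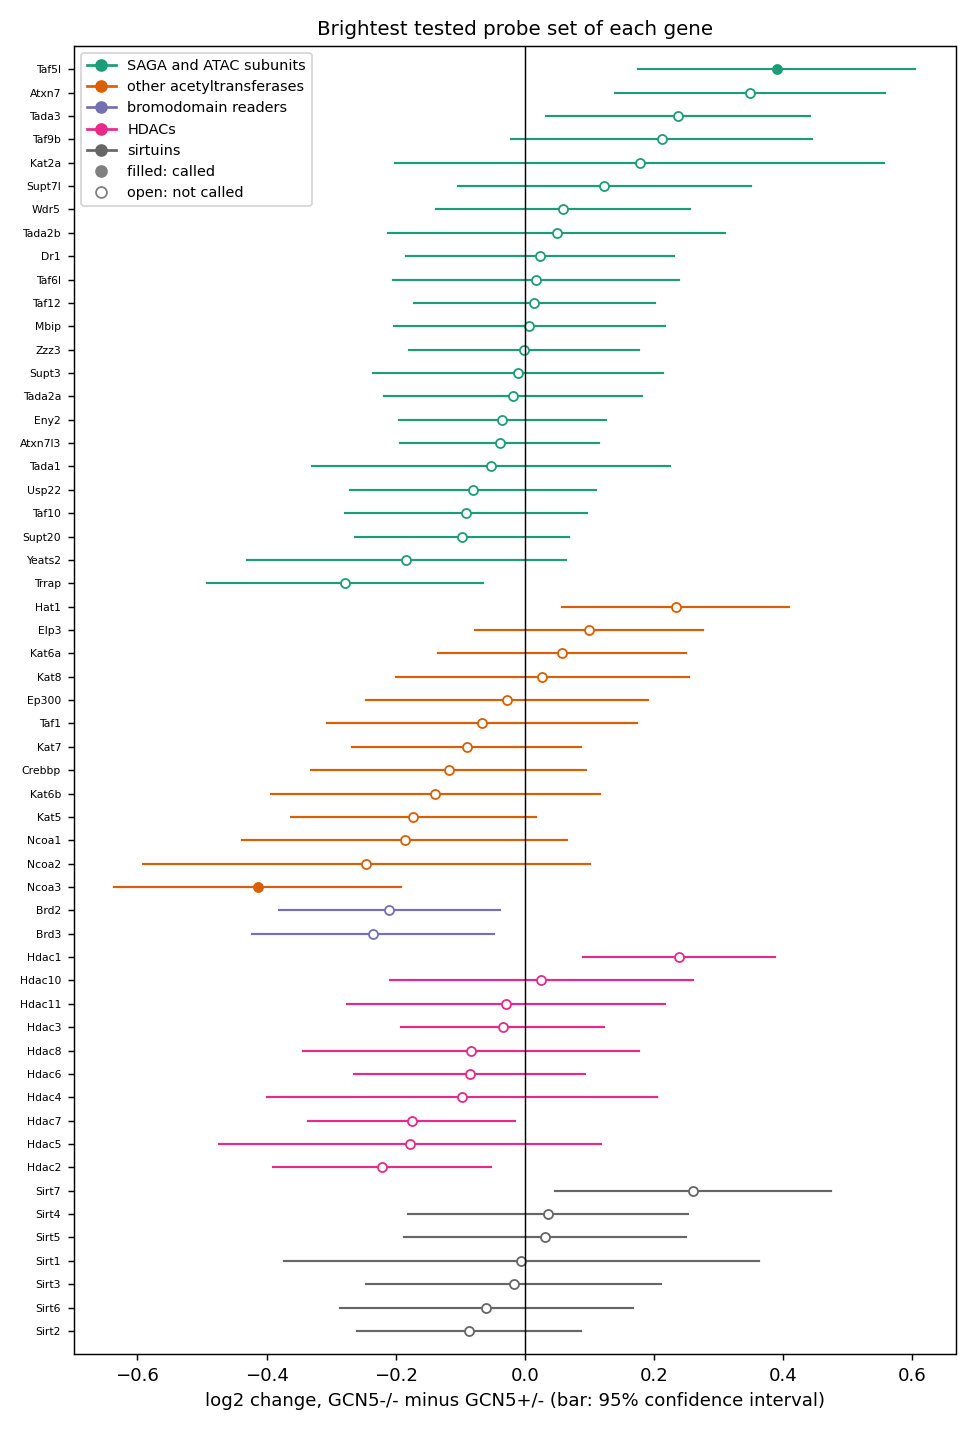
Log2 change, GCN5-/- minus GCN5+/- (horizontal axis), of the brightest tested probe set of each of 55 genes, with its 95% confidence interval as a bar; colours are the 5 gene groups, and filled points were called. Only Taf5l and Ncoa3 are filled, and all points lie between -0.41 and 0.39; the Kat2a row is 1426783_at, and its 2 called probe sets and that of Hdac2 are dimmer ones that are not drawn.

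SAGA and ATAC subunits went both ways. Of their 44 tested probe sets, 1 was called higher and 2 lower (6.82% in all, against 8.51% of all tested probe sets). The 2 lower ones were Kat2a, and the median change was 0.00. Taf5l, a WD-repeat scaffold subunit of SAGA, had a signal of 10.53, 10.63 and 10.95 in GCN5-/- arrays and 10.05, 10.17 and 10.72 in GCN5+/- arrays. The groups overlapped because line B was high in both, but each pair was higher in GCN5-/-, by 0.49, 0.46 and 0.23. The rise was 0.39 ± 0.09 (SE; limma adjusted p = 0.0412). The call was lost without each of the 4 line A arrays in turn (limma adjusted p = 0.0984 without GCN5-/- A1, 0.177 without GCN5-/- A2, 0.157 without GCN5+/- A1 and 0.0989 without GCN5+/- A2). It was called in 7 of 16 alternatives. The A1 and A2 arrays are duplicates of 1 line, and the call was also lost when they were averaged (adjusted p = 0.176) and with line as a random block (adjusted p = 0.185).

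The remaining SAGA core and architecture genes stayed within 0.35 log2 at every tested probe set. Tada2a, the adaptor of ATAC, changed by -0.02 ± 0.09, and Tada2b, its SAGA counterpart, by 0.05 ± 0.11. Tada3, the adaptor shared by both complexes, read 10.14, 10.14 and 10.06 in GCN5-/- arrays and 9.87, 9.82 and 9.94 in GCN5+/- arrays, without overlap, and its change of 0.24 ± 0.09 was not called (limma adjusted p = 0.145). Trrap, the large activator-binding subunit, was at 11.06, 11.32 and 11.03 in GCN5-/- and 11.58, 11.46 and 11.22 in GCN5+/- arrays, at -0.28 ± 0.09 (limma adjusted p = 0.108).

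Among the histone-fold and scaffold proteins, Tada1 changed by -0.05 and -0.08, Supt3 by -0.01, Supt7l by 0.12, Taf6l by 0.02, Taf12 by 0.01, Taf10 by -0.09 and 0.18, and Taf9b by 0.21, none of them called. Supt20, a SAGA structural subunit, had 7 tested probe sets, all between -0.35 and -0.10. The lowest, 1435905_at, read 7.93, 8.18 and 7.33 in GCN5-/- arrays and 8.23, 8.46 and 7.78 in GCN5+/- arrays. It was not called (limma adjusted p = 0.108), but was with the replicate block (adjusted p = 0.0486).

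In the deubiquitinase module of SAGA, the larger changes were at the anchor Atxn7 and at Eny2, none of them called. Atxn7 1436175_at had a signal of 10.02, 10.17 and 10.18 in GCN5-/- arrays, against 9.80, 9.73 and 9.79 in GCN5+/- arrays. These ranges did not overlap, and the change of 0.35 ± 0.09 fell just short of a call (limma adjusted p = 0.0531). It was called with quantile normalization (adjusted p = 0.0468) and with the robust fit (adjusted p = 0.0466). The other 2 Atxn7 probe sets gave 0.13 ± 0.15 and 0.21 ± 0.10.

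Eny2, a small subunit that SAGA shares with an mRNA export complex, gave different values at its 5 tested probe sets. The 2 brightest changed by -0.03 ± 0.07 and 0.07 ± 0.08. The dimmer 1429410_at, 1429412_at and 1456961_at changed by 0.28 ± 0.11, 0.16 ± 0.10 and 0.40 ± 0.14, the last being the largest positive change among the members. Its signal was 7.05, 7.40 and 7.75 in GCN5-/- arrays and 6.75, 7.11 and 7.15 in GCN5+/- arrays, overlapping between groups but higher in every pair; the adjusted p was 0.130, and 0.0460 with the replicate block. Atxn7l3 (-0.04 ± 0.07) and the ubiquitin protease Usp22 (-0.08 ± 0.08 and -0.08 ± 0.12) were not called.

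Zzz3, Mbip, Dr1, Wdr5 and Yeats2, further subunits and partners of ATAC, stayed within 0.18 log2 of no change. Zzz3 changed by -0.00 and 0.04, Mbip by 0.01, Dr1 by 0.02 and 0.10, Wdr5 by 0.06 and 0.01, and the YEATS-domain reader Yeats2 by -0.18 and -0.14, with SEs between 0.08 and 0.14. Yeats2 was lower in GCN5-/- in both line A pairs and not in line B. None of these was called.

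No other acetyltransferase rose past the threshold. Of 27 tested probe sets in this group, 0 were called higher and 1 lower by limma (3.7%, against 8.51% of all tested probe sets). An unadjusted limma p under 0.05 was seen at 5, against 24.4% of all tested probe sets, and the median change was -0.09. Ep300 read 10.80, 11.03 and 10.90 in GCN5-/- arrays and 11.06, 10.96 and 10.80 in GCN5+/- arrays, an overlapping range with a change of -0.03 ± 0.09 (95% confidence interval -0.25 to 0.19). Its partner Crebbp read 11.47, 11.72 and 11.51 in GCN5-/- and 11.78, 11.82 and 11.46 in GCN5+/- arrays at the brightest probe set, -0.12 ± 0.09 (interval -0.33 to 0.09). The dimmest Crebbp probe set, 1459804_at, had the most negative change of a member outside Kat2a, -0.44 ± 0.30, with pair A2 at -1.07 and pairs A1 and B at -0.19 and -0.06 (limma adjusted p = 0.434).

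The MYST enzymes were likewise uncalled. Kat5 (Tip60) changed by -0.17 ± 0.08 and -0.16 ± 0.09 at its 2 probe sets, Kat6a by 0.06 ± 0.08, Kat6b by -0.14 ± 0.11, Kat7 (Hbo1) by -0.09 ± 0.08 and Kat8 (Mof) by 0.03 ± 0.10 at the brightest ones. Upper ends of the confidence intervals for these 5 genes were 0.02, 0.25, 0.12, 0.09 and 0.25 log2 at the brightest probe sets. Dimmer tested probe sets of Kat6a and Kat7 had higher upper ends. Kat6a 1437487_at changed by -0.00 ± 0.15 (upper end 0.34), Kat7 1447631_at by -0.07 ± 0.17 (0.33) and Kat7 1459975_at by 0.15 ± 0.09 (0.36). Kat7 1459975_at was higher in GCN5-/- in every pair, without overlap, and was not called (limma adjusted p = 0.360).

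Hat1, which acetylates newly made histone H4 before it is placed on DNA, was the acetyltransferase with the largest positive change. Its signal was 11.74, 11.80 and 11.54 in GCN5-/- arrays and 11.49, 11.43 and 11.46 in GCN5+/- arrays. The groups did not overlap, with pairs at 0.25, 0.37 and 0.08, and the change of 0.23 ± 0.08 was not called (limma adjusted p = 0.102). Elp3, the acetyltransferase subunit of Elongator, changed by 0.10 ± 0.08, 0.09 ± 0.09 and 0.13 ± 0.09 at its tested probe sets. Taf1, the large TFIID subunit with bromodomains, changed by -0.07 ± 0.10 at the brighter probe set and 0.09 ± 0.11 at the dimmer, and neither gene was called.

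The steroid receptor coactivators Ncoa1, Ncoa2 and Ncoa3, which bring p300 and CBP to nuclear receptors, had 7 tested probe sets, with changes from -0.41 to -0.12, of which only Ncoa3 1422737_at was called. Ncoa1 changed by -0.19 ± 0.11 and -0.12 ± 0.11 (limma adjusted p = 0.350 and 0.554) and Ncoa2 by -0.25 ± 0.15, -0.32 ± 0.14 and -0.30 ± 0.10 (limma adjusted p = 0.372, 0.203 and 0.105). Ncoa3 1422737_at read 8.94, 9.13 and 8.91 in GCN5-/- arrays, against 9.40, 9.46 and 9.35 in GCN5+/- arrays. The ranges were separate and the pairs even, at -0.46, -0.34 and -0.44, with a fall of 0.41 ± 0.10 (SE; limma adjusted p = 0.0386). The second Ncoa3 probe set, 1448027_at, was also separate, at -0.28 ± 0.12, and was not called (limma adjusted p = 0.181). The call was lost when any 1 of the 6 arrays was left out (limma adjusted p between 0.0894 without GCN5-/- A2 and 0.113 without GCN5-/- A1), and it held in 5 of 16 alternatives. Averaging the line A duplicates gave an adjusted p of 0.0976, and line as a random block 0.0765.

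Both bromodomain readers had negative changes, and none of their probe sets was called. Brd2 and Brd3 are BET proteins, which bind acetylated histones and pass the signal to transcription elongation factors. All 6 of their probe sets were lower in each of the 3 pairs, against 25.3% of all tested probe sets, and 5 of 6 did not overlap between groups, against 8.79%. The median change was -0.25. The 6 probe sets stand for only 2 genes, and they are described here because their values stood out, so the counts are a description.

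Brd3 1450902_at had a signal of 10.31, 10.16 and 10.18 in GCN5-/- arrays and 10.52, 10.66 and 10.52 in GCN5+/- arrays. Its change of -0.35 ± 0.09 was at the threshold (limma adjusted p = 0.0501) and was called with quantile normalization and with the robust fit. Brd3 1460328_at was at -0.41 ± 0.11 (limma adjusted p = 0.0655), 1423199_at at -0.26 ± 0.10 and 1436960_at at -0.23 ± 0.08. Brd2 read 11.79, 11.75 and 11.95 in GCN5-/- arrays and 12.04, 12.09 and 11.98 in GCN5+/- arrays at 1437210_a_at, with the line B pair almost equal, and the change was -0.21 ± 0.07 (limma adjusted p = 0.127). This probe set was called lower in line A alone and without either line B array. The other Brd2 probe set gave -0.20 ± 0.08.

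**Figure D3:**
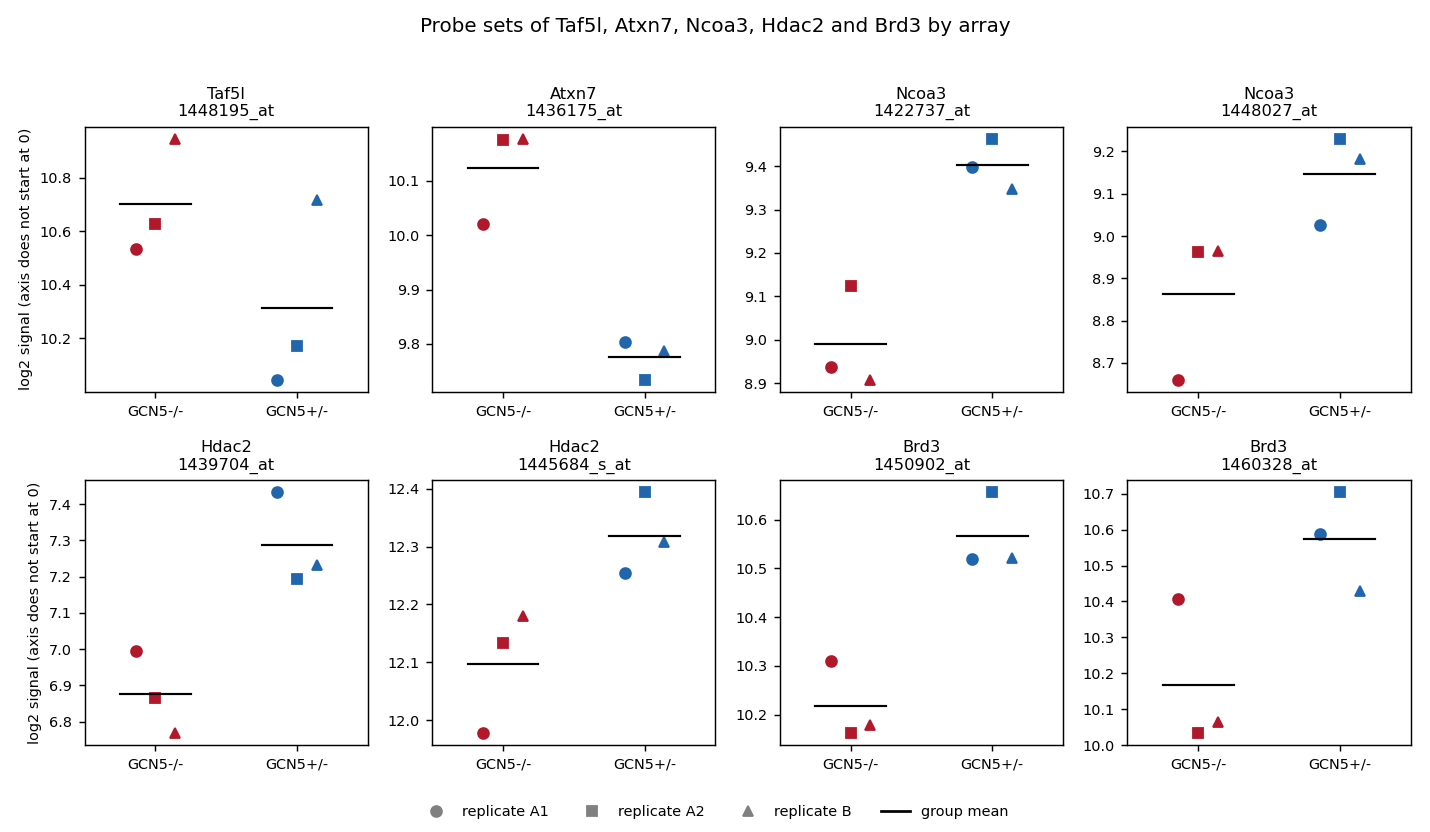
Log2 signal (vertical axis, a separate range in each panel) by array for Taf5l, Atxn7, 2 probe sets of Ncoa3, 2 of Hdac2 and 2 of Brd3; GCN5-/- in red, GCN5+/- in blue, circles A1, squares A2, triangles B, and lines the group means of 3 arrays. The genotypes separate in every panel except Taf5l, where line B is high in both.

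Of the 16 tested HDAC probe sets, 14 had a negative change and 1 was called, with a median of -0.08. Hdac2, a catalytic subunit of the Sin3, NuRD and CoREST repressor complexes, was below its GCN5+/- range at all 3 probe sets. The called one, 1439704_at, read 6.996, 6.87 and 6.77 in GCN5-/- arrays and 7.43, 7.19 and 7.23 in GCN5+/- arrays, close to the level filter, and fell by 0.41 ± 0.10 (limma adjusted p = 0.0467). The brightest, 1445684_s_at, read 11.98, 12.13 and 12.18 in GCN5-/- arrays and 12.25, 12.39 and 12.31 in GCN5+/- arrays, a smaller change of -0.22 ± 0.07 (limma adjusted p = 0.108), and 1449080_at gave -0.19 ± 0.09. The call held in 3 of 16 alternatives and was lost when any 1 of the 6 arrays was left out (limma adjusted p between 0.0502 without GCN5+/- A2 and 0.179 without GCN5-/- A2). It was also lost with averaged line A duplicates (adjusted p = 0.0784) and with line as a random block (adjusted p = 0.0785).

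Hdac1, the close relative that sits in the same complexes, had the opposite sign. Its single probe set read 12.01, 11.96 and 11.92 in GCN5-/- arrays and 11.69, 11.78 and 11.71 in GCN5+/- arrays. These ranges did not overlap, and the change of 0.24 ± 0.06 was not called (limma adjusted p = 0.0602); with quantile normalization it was (adjusted p = 0.0487). Hdac3, the enzyme of the nuclear receptor corepressor complex, changed by -0.03 ± 0.07.

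The remaining HDACs held between -0.18 and 0.03. Of the class IIa enzymes, which shuttle between nucleus and cytoplasm, Hdac4 gave -0.10, -0.04 and -0.02 and Hdac7 -0.18 and -0.10. Hdac5 gave -0.18 ± 0.13, with pairs of -0.16, -0.56 and 0.19. The tubulin deacetylase Hdac6 changed by -0.09, Hdac8 by -0.08, Hdac10 by 0.03 and Hdac11 by -0.03 at both probe sets. Hdac9 was below the filter at both, with means of 6.15 in GCN5-/- and 6.09 in GCN5+/- arrays at the brighter one.

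Sirtuins, the NAD-dependent deacetylases, were the group with the smallest changes, with a median size of 0.04 over 8 tested probe sets. Of these 0 were called, against 8.51% of all tested probe sets, and 1 had an unadjusted limma p under 0.05, against 24.4%. That one was Sirt7, a nucleolar sirtuin, with 10.08, 10.03 and 10.22 in GCN5-/- arrays and 9.90, 9.70 and 9.95 in GCN5+/- arrays, no overlap, and a change of 0.26 ± 0.09 (limma adjusted p = 0.129). Sirt1, the nuclear family member that deacetylates p53, read 8.35, 8.85 and 9.05 in GCN5-/- and 8.60, 8.88 and 8.79 in GCN5+/- arrays. Its change was -0.01 ± 0.16 with pairs of -0.25, -0.03 and 0.26. The cytoplasmic Sirt2 (-0.09), the mitochondrial Sirt3 (-0.02), Sirt4 (0.04) and Sirt5 (0.03 and -0.05) and the chromatin-bound Sirt6 (-0.06) stayed within 0.10 log2.

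The genotype change of no member was shown to differ between the lines. The interaction term was called at 0 of 101 member probe sets by limma (5 at an unadjusted p under 0.05, against 7.66% of all tested probe sets), and 0.0481% of all tested probe sets were called. That fit has 2 residual degrees of freedom. With simulated differences of 2 log2 units it recovered 0 of 100 changed probe sets. The simulated noise came from the fit without the product term, whose spread includes any true difference of the genotype change between lines. So the simulation does not give the power of this fit, and the 0 calls do not show equal changes in both lines. Over the tested members, the median change was -0.06 for A1, -0.05 for A2 and -0.05 for B. At Kat2a 1422972_s_at the interaction was -1.98 ± 0.40 (SE). The pairs of this probe set were at -1.35 (A1), -2.22 (A2) and -3.76 (B), the fall being largest in line B.

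More probe sets were called between the 2 lines than between the genotypes. This held among members (13 against 5) and over all tested probe sets (6246 against 2299). Each side of the line comparison is 1 line, so no spread between independent lines enters it. Its SEs and p-values reflect technical spread in line A and how far the line difference varies between genotypes. The SDs of a line also hold its genotype change. Line B minus line A was called at 13 of 101 tested probe sets, 7 higher and 6 lower in line B (12.9%, against 23.1% of all tested probe sets), for 11 genes. SAGA and ATAC subunits held 9 of the 13, out of 44 tested probe sets (20.5%, against the same 23.1%). Sirtuins held 3, out of 8 (37.5%), and other acetyltransferases 1, out of 27 (3.7%). HDAC and bromodomain reader probe sets were not called, with line differences between -0.23 and 0.29. The count was 8 without GCN5-/- B, 8 without GCN5+/- A1 and 7 without GCN5+/- B, and the calls of Taf9b, Tada1 and both Usp22 probe sets were present in each of these.

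Taf9b, a histone-fold subunit that can take the place of Taf9, had the largest line difference. Its signal was 7.38 ± 0.25 (SD, n = 2) in line B and 8.47 ± 0.11 (SD, n = 4) in line A, a difference of -1.09 ± 0.11 (SE; limma adjusted p = 0.000308). Tada1, a SAGA core subunit, was lower in line B by a similar amount, with 8.38 ± 0.03 (SD, n = 2) in line B and 9.35 ± 0.17 (SD, n = 4) in line A (-0.97 ± 0.13). Supt20 1435905_at (-0.64 ± 0.12), Taf10 (-0.43 ± 0.09) and Zzz3 (-0.33 ± 0.08) were also lower in line B. Among the 7 Supt20 probe sets this one alone was called.

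Usp22 was higher in line B at both probe sets. The brighter one read 12.43 ± 0.04 (SD, n = 2) in line B and 11.63 ± 0.13 (SD, n = 4) in line A, 0.80 ± 0.09 (SE; limma adjusted p = 0.000534), and the other 0.85 ± 0.12. Sirt5, a mitochondrial sirtuin that removes succinyl and malonyl groups, was higher in line B at 2 probe sets, by 0.62 ± 0.12 and 0.38 ± 0.10. Taf5l (0.49 ± 0.10), Elp3 (0.33 ± 0.08) and Tada2a (0.32 ± 0.09) were higher, and Sirt2 lower (-0.31 ± 0.08). Line B is 2 arrays of 1 line. Without GCN5-/- B or without GCN5+/- B the calls of Supt20, Taf10, Taf5l, Elp3, Zzz3, Tada2a, Sirt2 and both Sirt5 probe sets were lost in at least 1 of these fits, with a limma adjusted p of 0.354 for Tada2a without GCN5+/- B.

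**Figure D4:**
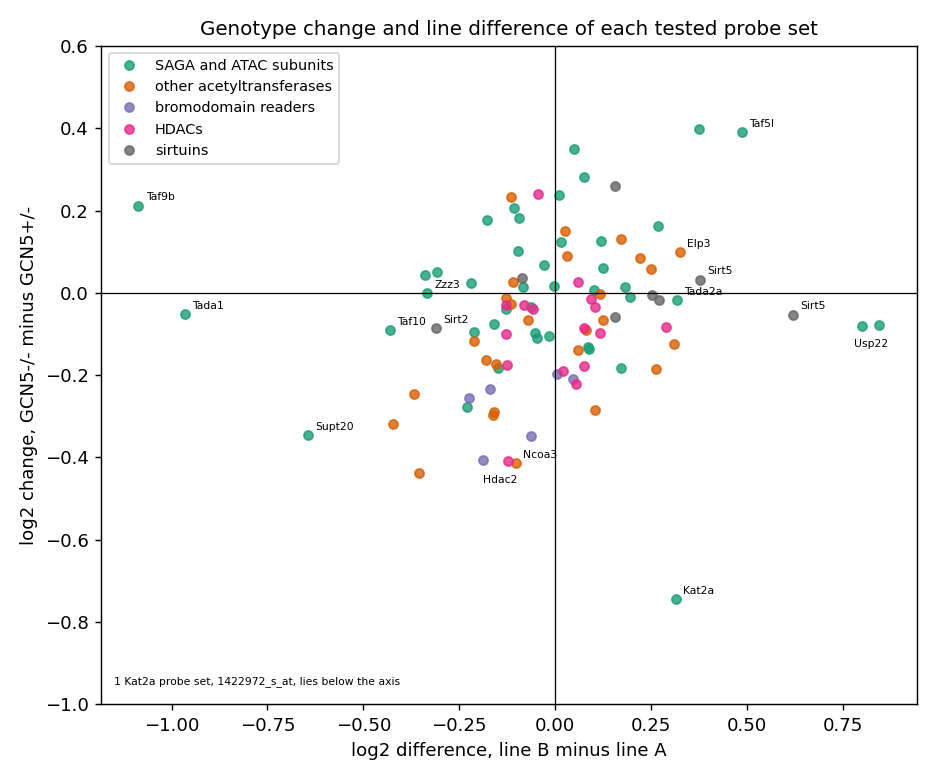
Log2 difference of line B minus line A (horizontal axis) against log2 change of GCN5-/- minus GCN5+/- (vertical axis) for tested member probe sets, 100 shown and Kat2a 1422972_s_at below the axis; colours are the gene groups and named points were called in 1 comparison or both. Line differences reach -1.09 and 0.85, while genotype changes outside Kat2a stay between -0.44 and 0.40.

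Partner genes outside the 58 were read from lists of the same complexes, against the same background of 4.2% higher and 4.31% lower. None of the calls given for them held without GCN5-/- A2, with averaged line A duplicates or with line as a random block. Among 20 probe sets of further SAGA and ATAC subunits, 3 were lower and all 3 were Atxn7l3b, a relative of Atxn7l3 that competes for Usp22 partners. Its brightest probe set read 12.21, 12.17 and 11.93 in GCN5-/- arrays and 12.49, 12.52 and 12.28 in GCN5+/- arrays, and fell by 0.33 ± 0.06 (limma adjusted p = 0.0127). Of the genes around NuA4 and the MYST enzymes 1 of 69 probe sets was higher and 4 lower. Ing1, a reader of methylated histone H3 in a Sin3 complex, was counted in this list with the other Ing genes. Ing1 fell by 0.48 ± 0.08 and 0.47 ± 0.08, and Msl1, a scaffold that holds Kat8, by 0.41 ± 0.09 and 0.45 ± 0.10. Kansl2, of the other Kat8 complex, rose by 0.27 ± 0.05.

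Further bromodomain and YEATS readers had 1 of 54 probe sets higher, Atad2 (0.32 ± 0.07, SE), and 1 lower, Brwd1 (-0.49 ± 0.11). Atad2 is a bromodomain ATPase known from dividing cells. HDAC complex partners had 1 of 70 higher, the NuRD subunit Gatad2a (0.47 ± 0.11), and 2 lower, the CoREST subunit Rcor3 (-0.47 ± 0.10) and the Sin3 subunit Sap30l (-0.42 ± 0.08), with limma adjusted p-values between 0.0162 and 0.0338.

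Promoter sequence was set beside the members that moved. RefSeq promoters (GRCm38.p6) were found for 48 of the 58 genes, with 67 start sites, and the 250 bases before each start were searched on both strands for 5 motifs. The GC box GGGCGG was in 67.2% of member promoters and 32.7% of all 32851 promoters, the TATA box TATAAA in 2.99% and 12.4%, the E-box CACGTG, to which Myc binds, in 11.9% and 6.02%, and CCAAT in 28.4% and 33.8%. The interferon-stimulated response element was in 1.49% and 2.98%. A match is a description of letters, not a bound site.

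The 4 promoters below are those of the deleted gene, of the called genes Taf5l and Hdac2, and of the reader Brd3, which was not called. That of Ncoa3, also called, is not shown. They are written 5′ to 3′ on the strand of the gene, with motif matches in capitals. Only the GC box was matched, once in each of Taf5l, Hdac2 and Brd3, and no motif in Kat2a. Taf5l has 2 starts in the table, of which 1 is shown.
Kat2a, chr11:100712468-100712717, minus strand: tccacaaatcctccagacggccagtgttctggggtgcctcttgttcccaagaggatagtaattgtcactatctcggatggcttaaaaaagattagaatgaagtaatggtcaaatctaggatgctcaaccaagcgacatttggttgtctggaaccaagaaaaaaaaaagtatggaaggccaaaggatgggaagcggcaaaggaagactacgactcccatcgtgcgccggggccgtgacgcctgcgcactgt
Taf5l, chr8:124021398-124021647, minus strand: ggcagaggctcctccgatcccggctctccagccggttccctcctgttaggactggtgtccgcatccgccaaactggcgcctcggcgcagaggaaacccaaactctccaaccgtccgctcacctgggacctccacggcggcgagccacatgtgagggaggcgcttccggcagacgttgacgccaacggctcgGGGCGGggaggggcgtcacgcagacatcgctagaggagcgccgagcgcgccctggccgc
Hdac2, chr10:36974294-36974543, plus strand: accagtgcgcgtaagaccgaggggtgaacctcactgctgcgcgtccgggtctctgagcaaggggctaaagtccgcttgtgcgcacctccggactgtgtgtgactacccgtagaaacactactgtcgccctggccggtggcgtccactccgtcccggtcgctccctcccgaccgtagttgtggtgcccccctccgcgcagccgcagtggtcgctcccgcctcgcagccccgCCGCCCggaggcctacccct
Brd3, chr2:27475399-27475648, minus strand: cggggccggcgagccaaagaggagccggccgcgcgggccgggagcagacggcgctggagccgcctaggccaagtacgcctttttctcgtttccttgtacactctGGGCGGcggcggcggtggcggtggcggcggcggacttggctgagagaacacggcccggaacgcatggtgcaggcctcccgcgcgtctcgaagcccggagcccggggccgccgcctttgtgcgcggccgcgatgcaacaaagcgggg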

How the data were processed

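Affymetrix arrays of 6 RNA samples were analysed from 1 table of log2 signals per probe set deposited by the authors; values ran between 3.13 and 15.2, as log2 signals do. The submitters' processing notes list MAS5 (6 samples) and Partek (1 sample) with no role for either, and the authors' normalization, background correction and filters are among the steps not given in the sources used here. Whether values were scaled between arrays was not tested, and such scaling would remove changes shared by most genes. For arrays, their number limits the precision.

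Probe sets were named by the platform annotation, updated through Entrez identifiers (RefSeq, GRCm38.p6, names only). Of 45037 non-control probe sets, 34945 had 1 symbol, 932 several and 9160 none. limma 3.58.1 in R 4.3.3 (lmFit, eBayes with trend) was fitted with genotype and line over 27022 probe sets at or above the 40th percentile. The interaction came from a fit with the product term. On simulated arrays, the genotype fit over 27036 probe sets recovered 82 of 100 changes of 1 log2 unit and 97 of 100 of 2. It also called 8 unchanged probe sets. Noise was drawn independently for each array. Changes below 1 log2 unit, where all tested members outside Kat2a lie, were not simulated.

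Replicate names pair arrays by cell line, and the split of line A into pairs A1 and A2 follows the names. Deviations from group means correlated at 0.714 (A1), 0.727 (A2) and 0.846 (B). These values include the difference between the lines. Crossing A1 of a genotype with A2 of the other gave 0.443 and 0.509. Once line was taken out as well, same-name arrays gave 0.202 (A1) and 0.169 (A2), and crossed ones -0.557 and -0.465. In that fit the line A residuals of one genotype sum to minus those of the other. The fit itself thus pushes these correlations towards negative values, so their signs alone do not test the pairing.

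The members and lists, and the rule for named genes, were chosen with earlier results of these data known. The rule took every Kat2a and Kat2b probe set, all called ones, the 3 largest rises and falls, up to 5 genes per direction by line difference, the brightest probe set of 16 enzymes and adaptors, and genes whose probe sets disagree; the rest are given so that every member is accounted for. Alternatives were no filter or a lower one, quantile normalization, other variance models, other treatments of the line and leaving out each array.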

Additional observations from a re-analysis of the deposited data

How the results depend on the processing

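The count of 5 members called for genotype was 8 with quantile normalization, 7 with the robust fit, 7 with the replicate block, 5 in line A alone, 4 with the filter at the 20th percentile, 3 with no trend, 2 with no level filter, 2 with averaged line A duplicates, 1 with a random line block and 0 once the line term was dropped, where limma called 69 probe sets in all (0.255%). It ranged from 1 to 5 when 1 array was left out: 2 without GCN5-/- A1, 1 without GCN5-/- A2, 1 without GCN5+/- A1, 2 without GCN5+/- A2 and 5 without either line B array, where Brd2 1437210_a_at and Kat2a 1426783_at were called and Ncoa3 and Hdac2 were not, as in line A alone. Leaving out 1 array gave 7 to 14 line calls and 0 to 1 interaction calls. The 15 called partner probe sets, acetyl-CoA genes included, became 0 without GCN5-/- A2, 1 without GCN5+/- A1, 3 without GCN5+/- A2, and 0 with no line term, a random block or averaged duplicates. With the replicate block the calls gained were Eny2 1456961_at (0.40, adjusted p = 0.0460) and Supt20 1435905_at (-0.35, adjusted p = 0.0486), and no member call was lost.

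Kat2a 1426783_at was 0.4698 in line A alone (adjusted p = 0.0238) and 0.04 to 0.4698 with 1 array left out. Kat2a 1422972_s_at was -2.444 with no line term (adjusted p = 0.169). Kat2a 1422971_at was -0.745 with no line term (adjusted p = 0.224) and with a random block (adjusted p = 0.0574), and -0.8584 to -0.5612 with 1 array left out. Uncalled changes near 0 turned sign. In line A alone Tada2a was 0.05825, Tada2b -0.01176 and Taf10 0.0192. With averaged duplicates Zzz3 was 0.0173, Ep300 0.005675, Kat8 -0.003995 and Sirt1 0.05974, and Zzz3 was 0.003589 with quantile normalization. With 1 array left out the changes ran as Tada1 -0.1569 to 0.05342, Tada2a -0.07593 to 0.05825, Tada2b -0.01564 to 0.15, Taf10 -0.1643 to 0.0192, Usp22 -0.1561 to 0.03467, Zzz3 -0.05417 to 0.07309, Ep300 -0.09505 to 0.0572, Kat6a -0.005486 to 0.1095, Kat8 -0.03253 to 0.09006, Sirt1 -0.1362 to 0.1746 and Sirt5 -0.1258 to 0.0236. The cause was not tested. The number of arrays limits what can be seen.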

Other observations

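Among genes for enzymes and carriers that supply acetyl-CoA, the donor of the acetyl group, 1 was called. Of 14 tested probe sets of 6 genes, 2 were called, against 8.51% of all tested probe sets, both of Acss2, which makes acetyl-CoA from acetate in cytoplasm and nucleus and is also a target of the sterol regulator SREBP. Acss2 1422479_at read 8.66, 8.57 and 8.08 in GCN5-/- arrays and 9.61, 9.39 and 8.36 in GCN5+/- arrays, and fell by 0.69 ± 0.14 (SE; limma adjusted p = 0.0259). Acss2 1422478_a_at read 7.93, 7.92 and 7.41 in GCN5-/- arrays and 8.99, 8.92 and 7.67 in GCN5+/- arrays, and fell by 0.78 ± 0.16 (limma adjusted p = 0.0233). Both calls were lost without each of the 4 line A arrays (limma adjusted p between 0.0711 and 0.115), with averaged line A duplicates (0.116 and 0.125), with line as a random block (0.164 and 0.151) and with no line term (0.538 and 0.514). Line B was lower than line A in both genotypes, and the line B pair differed least, by -0.28 and -0.26. The interaction was not called (limma adjusted p = 0.578 and 0.370).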
